A study of Mus musculus with 10 samples.

Results

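Txnip, the gene of thioredoxin-interacting protein, was followed in single mouse hepatocytes across the liver lobule at 4 times of day. It is 1 gene (entry txnip) of the 14812 gene entries in the deposited tables, which hold 18378 cells. The gene was chosen by its measured values: its difference between the periportal and pericentral zones changed with time of day in these same 10 libraries. Its levels by zone and layer are therefore given as a description, with no test, and tests are kept to measures outside that contrast. All groups were C57BL/6 males aged 3 months on regular chow without restriction, and no genetic change is stated for any of them. The condition that differs between them is Zeitgeber time, which counts hours of the light-dark cycle from lights on by convention. The number in the 10x sample index also differs between groups, as given below. There were 3 libraries at ZT0 (A, B and C), 2 at ZT6 (A and B), 3 at ZT12 (A, B and C) and 2 at ZT18 (A and B). Every mouse had been anaesthetised with ketamine (50 mg/kg) and xylazine (5 mg/kg), and the hepatocytes were freed with collagenase and purified on Percoll. The number of mice behind a library is not stated, so p-values are set against the spread between libraries, which may be technical. Those of edgeR for Txnip-positive against other cells can be smaller than that spread warrants.

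TXNIP is an alpha-arrestin, a family of adaptor proteins that steer membrane proteins towards internalisation. It binds thioredoxin, the small protein that reduces oxidised cysteines, and it limits glucose uptake by promoting removal of glucose transporters from the cell surface. Its transcription is raised by glucose through ChREBP (gene Mlxipl) and its partner Mlx, and the protein is short-lived, being marked for destruction by ubiquitin ligases such as Itch. In the lobule, blood enters beside the portal vein and leaves through the central vein, so periportal hepatocytes meet it before pericentral ones do. Periportal cells are known for gluconeogenesis and urea synthesis, and pericentral cells for glutamine synthesis and drug metabolism.

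The promoter is shown because it holds the sequence through which glucose is known to act on Txnip. ChREBP with Mlx binds a pair of E-box-like hexamers separated by 5 bases. Txnip is protein-coding and lies on the forward strand of chromosome 3, from 96557957 to 96561857 (GRCm38.p6). The 250 bases before its annotated start, from RefSeq, are printed 5′ to 3′ with the hexamer CACGAG in capitals.
Txnip promoter, chr3:96557707-96557956, + strand: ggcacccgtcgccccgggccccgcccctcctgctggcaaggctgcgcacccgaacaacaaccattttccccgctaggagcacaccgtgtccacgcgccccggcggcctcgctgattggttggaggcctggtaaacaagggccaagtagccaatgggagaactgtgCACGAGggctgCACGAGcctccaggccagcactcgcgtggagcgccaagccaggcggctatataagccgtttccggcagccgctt
CACGAG stands at bases -85 to -80 and -74 to -69 from the start, on the gene's own strand, with 5 bases between the copies. CCAAT boxes, the motif of the factor NF-Y, stand at -137 to -133 on the opposite strand and at -102 to -98 on the gene's strand. Searched on both strands, CACGAG occurred in 5.367% of 32851 RefSeq promoter windows of 250 bases, and CCAAT in 33.85%. The pair of CACGAG copies at this spacing occurred in 1 of those windows, that of Txnip. The pattern was taken from Txnip's own letters, so its presence there was fixed and variants of the hexamer were not counted. Arrdc4, the alpha-arrestin gene that is also a known target of ChREBP, has no CACGAG in its window and 1 CACGTG, the palindromic E-box, which 6.021% of the windows hold. The windows of Pklr, another listed carbohydrate-response target, hold neither CACGAG nor CACGTG. A match of letters is a description and shows no binding in these cells.

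Library totals ran from 1454623 to 7144803 UMIs (counts of distinct tagged molecules), and the median cell of a library held 1588 to 2662. Levels are given as CPM, UMIs scaled to a total of 1000000 for the library, zone or layer. Hepatocyte markers were high in every library, and those of most other cell types were low. Summed lymphocyte markers reached at most 0.14 CPM and macrophage markers at most 6.109 CPM, with Clec4f, C1qa and C1qb at 0. Summed markers were 2.75 to 15.36 CPM for endothelial cells, 2.973 to 10.3 for stellate cells, 0 to 7.838 for neutrophils, 1.375 to 6.718 for cycling cells and 0.7727 to 32.46 for cholangiocytes. Of the cholangiocyte markers, Sox9 alone reached 32.29 CPM, within the range of Txnip itself. Erythroid markers summed to 72.18 to 360.5 CPM, of which Alas2 held 67.37 to 106.9 CPM. Haemoglobin genes reached 8.80 and 293.2 CPM at ZT18 against 0.338 to 8.32 in the other libraries, and mitochondrial genes took 12.88% (ZT12C) to 24.28% (ZT12A) of a library's UMIs; their part in the Txnip values was not tested. As a check of the position score, 10 of 10 known pericentral genes that are no landmarks were higher in the pericentral zone and 10 of 10 known periportal genes higher in the periportal zone.

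Over all cells, Txnip was higher at ZT6 and ZT12 than at ZT0 and ZT18. The level was 17.63, 29.87 and 17.39 CPM in ZT0 libraries A, B and C, from 101, 201 and 103 Txnip UMIs. It was 31.49 and 54.09 CPM at ZT6, from 155 and 140 UMIs, and 58.43, 30.09 and 45.68 CPM at ZT12, from 85, 215 and 91 UMIs. At ZT18 it was 21.69 and 14.82 CPM, from 69 and 55 UMIs. All 5 libraries of ZT6 and ZT12 stood above all 5 of ZT0 and ZT18, although ZT12B (30.09 CPM) exceeded ZT0B (29.87 CPM) by less than counting error. The means were 21.6 ± 7.14 (SD, n = 3), 42.8 ± 16.0 (n = 2), 44.7 ± 14.2 (n = 3) and 18.3 ± 4.86 CPM (n = 2) at ZT0, ZT6, ZT12 and ZT18.

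The rhythm of this overall level, a contrast other than the one that chose the gene, did not pass the threshold. A 24-h wave fitted to all libraries had a log2 amplitude (mean to peak) of 0.72 and a peak at ZT 8.46, with an edgeR adjusted p of 0.0711 (unadjusted p = 0.00467). The same test called 458 of 8908 genes, which is 5.14%. In the middle zone alone, whose cells the choice of the gene did not use, the amplitude was 0.65 with a peak at ZT 8.80 and an edgeR adjusted p of 0.0851, where 293 of 8880 genes (3.3%) were called. The call for all cells depended on the tool: the adjusted p was 0.0184 with DESeq2 and 0.0439 with library size in place of TMM scaling, and 0.0409 without ZT0B or 0.0442 without ZT6A in edgeR. Over all alternatives the adjusted p lay between 0.0184 and 0.2745.

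Few cells carried a Txnip UMI. At least 1 was found in 1131 of 18378 cells (6.15%): 1053 cells had exactly 1, 78 had at least 2, and the highest was 4. Per library the share ran from 3.02% (ZT18B; exact binomial 95% interval 2.28% to 3.93%) to 11.0% (ZT12A; 8.78% to 13.5%). At an equal depth of 1000 UMIs per cell, which no cell fell under, the expected share was 2.15 ± 0.633% at ZT0 (n = 3), 3.99 ± 1.16% at ZT6 (n = 2), 4.57 ± 1.49% at ZT12 (n = 3) and 1.81 ± 0.464% at ZT18 (n = 2). The order of the shares thus followed that of the CPM. No cell type that should lack Txnip is present in these libraries, so the share that free RNA gives was not measured. Counting alone, given each cell's depth and layer, predicts 54.6 cells with at least 2 UMIs, and the count exceeded its own prediction in 8 of 10 libraries. The excess lay mostly in ZT0B (17 cells against 8.39 predicted) and ZT6B (17 against 7.76). In other libraries it was small, such as 12 against 11.5 in ZT12B. Both ZT18 libraries fell below their predictions (1 against 1.97 in A and 1 against 1.12 in B). The variance beyond counting, as a squared coefficient of variation, had a median of 0.235 over libraries (range -0.764 to 1.85). That is above 869 of 1026 genes (Txnip included) with a mean level within 1.25 times that of Txnip. The median of these genes was 0.0538. With 1 UMI in nearly every positive cell, a cell without a UMI cannot be told from one with few transcripts.

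By zone, the pericentral level was highest at ZT12 and the periportal level at ZT6. Zones are 3 equal parts of each library's cells, ordered by 8 periportal against 8 pericentral landmark genes, none of which is Txnip. In the pericentral zone, ZT0 libraries A, B and C held 25.9, 23.9 and 17.7 CPM and ZT6 libraries A and B held 24.5 and 52.4 CPM. The pericentral zone of ZT12 held 78.3, 39.3 and 62.6 CPM in A, B and C, and that of ZT18 held 39.8 and 21.4 CPM. All ZT12 values there stood above all ZT0 values, while the ZT6 and ZT18 ranges overlapped both. In the periportal zone the ZT0 libraries held 11.6, 38.8 and 10.9 CPM and the ZT6 libraries 34.9 and 69.5 CPM. The periportal zone of ZT12 held 35.1, 18.7 and 30.1 CPM, and that of ZT18 held 11.1 and 6.10 CPM. The periportal mean was thus lowest at ZT18, ZT0A and ZT0C held like levels, and ZT0B stood far above them. The middle zone had means of 22.1 ± 5.78 (n = 3), 37.1 ± 2.19 (n = 2), 48.8 ± 17.8 (n = 3) and 17.2 ± 0.937 CPM (n = 2) from ZT0 to ZT18.

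**Figure D1:**
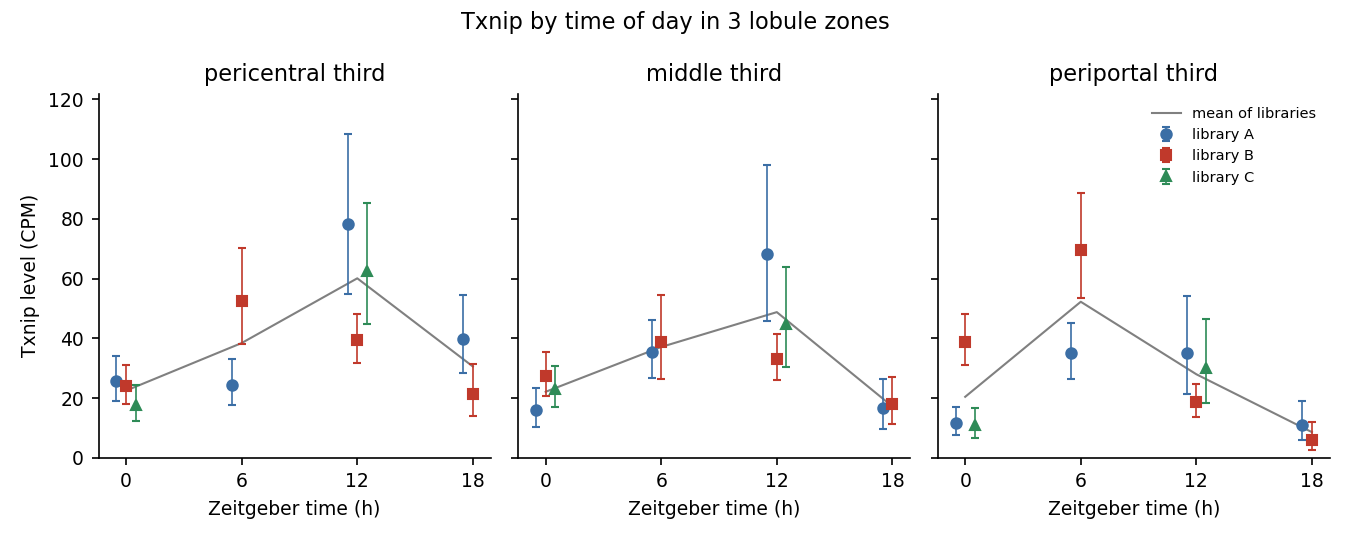
Txnip level in CPM (y axis) against Zeitgeber time in hours (x axis) in the pericentral, middle and periportal zones. Symbols are libraries A, B and C with exact Poisson 95% intervals (counting error only), and grey lines join the means; the pericentral means are highest at ZT12 (60.1 CPM) and the periportal ones at ZT6 (52.2 CPM).

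Ordered by mean, the 12 combinations of zone and time ran from 60.1 ± 19.7 CPM (pericentral, ZT12, n = 3) and 52.2 ± 24.5 CPM (periportal, ZT6, n = 2) down to 17.2 ± 0.937 CPM (middle, ZT18, n = 2) and 8.60 ± 3.53 CPM (periportal, ZT18, n = 2). Of the 11 pairs of neighbours in that order, 10 had overlapping ranges over libraries. The exception was the last, where the middle zone at ZT18 (16.5 to 17.9 CPM) stood above the periportal zone (6.10 to 11.1 CPM). The pericentral mean at ZT12 and the periportal mean at ZT6 therefore did not differ beyond the spread.

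Within a library, the direction of the zonation turned with time. The periportal minus pericentral difference on the log2(CPM + 1) scale was -1.10, 0.68 and -0.66 in ZT0 libraries A, B and C. At ZT6 it was 0.50 and 0.40, and at ZT12 it was -1.14, -1.03 and -1.03. At ZT18 it was -1.75 and -1.66. Txnip thus leaned periportal in both ZT6 libraries and pericentral in all 5 libraries of ZT12 and ZT18. Counting intervals left out 0 in all ZT12 and ZT18 libraries but not in ZT6A (-0.08 to 1.12) or ZT6B (-0.17 to 0.997). The means were -0.36 ± 0.92 at ZT0 (n = 3), 0.45 ± 0.07 at ZT6 (n = 2), -1.07 ± 0.06 at ZT12 (n = 3) and -1.71 ± 0.07 at ZT18 (n = 2). Mitochondrial genes took a larger share of periportal than of pericentral UMIs at each time, with means of 18.9% and 15.0% at ZT0, 17.5% and 14.6% at ZT6, 19.5% and 16.8% at ZT12, and 22.4% and 17.1% at ZT18; their part in the Txnip difference was not tested.

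**Figure D2:**
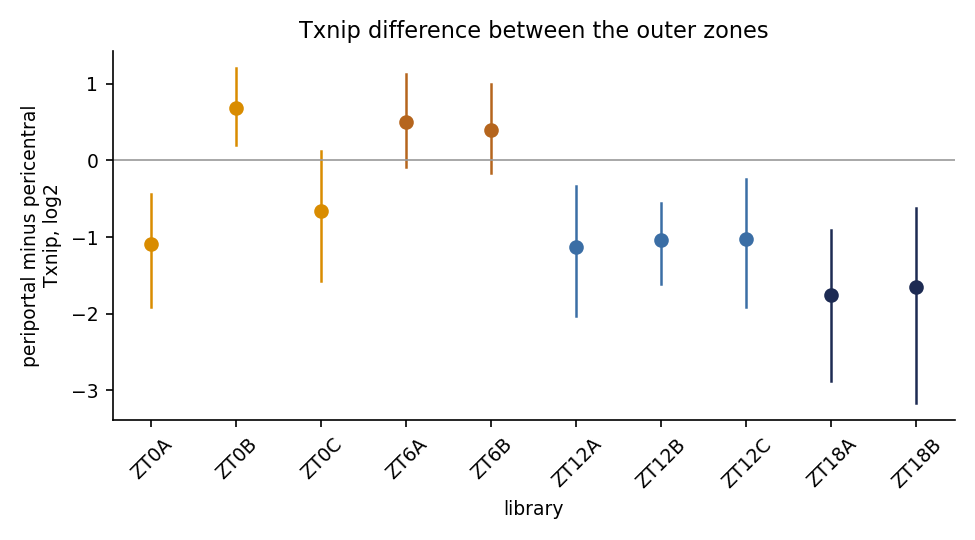
Periportal minus pericentral Txnip, log2 (y axis), in each of the 10 libraries (x axis, coloured by time), with bars for the 95% interval of the ratio from counting error alone. The 5 libraries of ZT12 and ZT18 lie between -1.75 and -1.03, both ZT6 libraries above 0, and the ZT0 libraries on both sides of 0.

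ZT0B stood apart from the other ZT0 libraries: its difference of 0.68 (0.20 to 1.21) was opposite in sign to that of ZT0A (-1.92 to -0.44), and neither counting interval held 0. The 10x sample index in the labels carries the number 7 for ZT0B, ZT6A, ZT6B and ZT12B, where the differences were 0.68, 0.50, 0.40 and -1.03. Both ZT18 libraries carry the number 4, which no other library has, so that index number and ZT18 cannot be told apart. With index number 3 the differences were -1.10 (ZT0A) and -1.14 (ZT12A), and with 5 they were -0.66 (ZT0C) and -1.03 (ZT12C). The index of ZT0A is written SI-GA-G3 and that of ZT12A SI-GA-3A, so the number they share rests on reading both forms alike. The ZT12 libraries, with 3 different index numbers, thus gave -1.14, -1.03 and -1.03. Each library with a positive difference had index number 7, and no ZT6 library had another.

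In 8 equal layers, layer 1 being the most pericentral, the mean level was lower towards the periportal end at ZT12 and ZT18. At ZT12 the mean level was 63.4 ± 25.6, 74.4 ± 31.8, 43.7 ± 2.15 and 53.2 ± 24.8 CPM in layers 1 to 4, then 43.2 ± 24.4, 36.2 ± 15.2, 31.6 ± 13.3 and 21.4 ± 5.70 CPM in layers 5 to 8 (n = 3). At ZT18 it was 29.7 ± 4.80, 33.2 ± 21.7, 27.0 ± 3.75 and 19.5 ± 1.38 CPM in layers 1 to 4, then 12.9 ± 0.0176, 10.1 ± 2.67, 10.0 ± 5.49 and 8.41 ± 3.58 CPM (n = 2). Both times had their highest mean in layer 2 and their lowest in layer 8, but the ZT12 mean rose between layers 3 and 4. Single libraries differed in their highest layer: it was layer 1 in ZT12A and ZT18B, layer 2 in ZT12C and ZT18A and layer 3 in ZT12B. The ZT12 library with the most Txnip UMIs, ZT12B, dropped between layers 4 and 5. It held 39.58, 38.05, 44.55 and 40.14 CPM in layers 1 to 4, then 23.64, 19.7, 20.78 and 16.27 CPM. A layer rests on few molecules: layer 8 of ZT18A and ZT18B held 5 and 3 Txnip UMIs, with exact Poisson 95% intervals of 3.55 to 25.5 and 1.21 to 17.2 CPM.

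At ZT6 the level stayed between 34.6 and 44.2 CPM in the means of layers 1 to 6 and was highest in layer 7, at 65.2 ± 29.2 CPM (44.6 in ZT6A and 85.9 in ZT6B). Layer 8 held 48.2 ± 27.6 CPM (n = 2). The ZT6 libraries differed at the pericentral end, where layer 1 held 17.6 CPM in ZT6A and 51.7 CPM in ZT6B. At ZT0 the libraries diverged at the periportal end: layer 8 held 8.93, 45.6 and 6.35 CPM in A, B and C, while layer 2 held 27.8, 27.0 and 24.8 CPM. In all 3 ZT0 libraries layer 1 was below layer 2, and this held in 1 library at each other time.

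**Figure D3:**
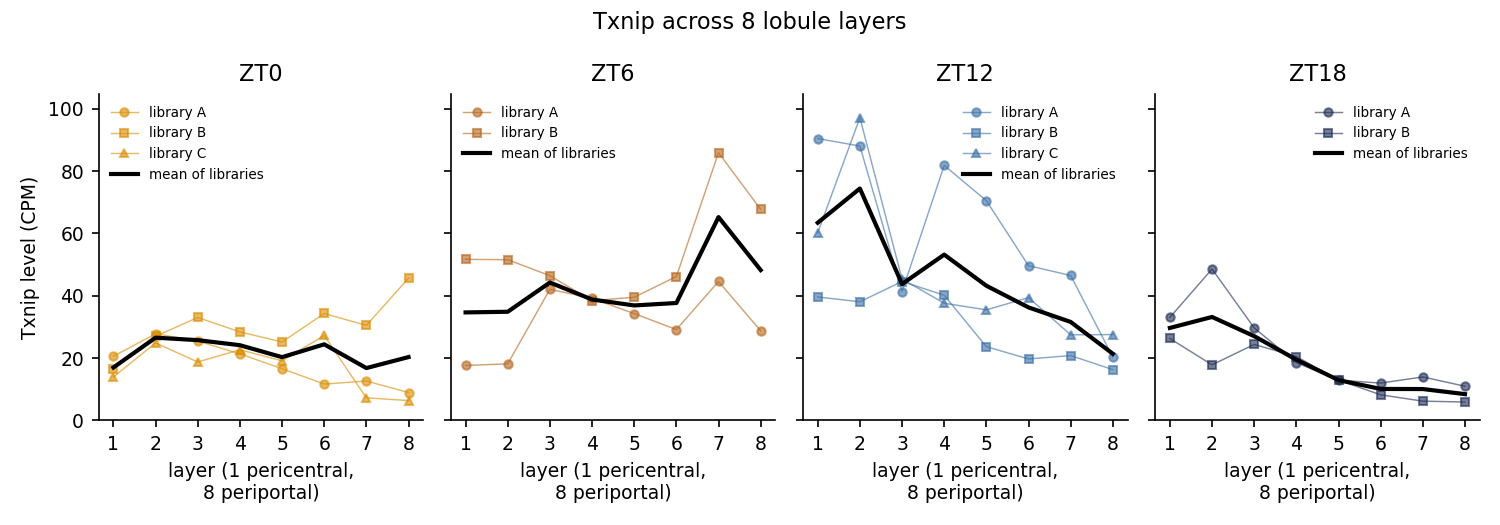
Txnip level in CPM (y axis) over 8 layers from pericentral (1) to periportal (8), in a panel for each time; thin lines are libraries and thick lines their mean. The mean falls from layer 2 to layer 8 at ZT12 (74.4 to 21.4 CPM) and ZT18 (33.2 to 8.41 CPM), is highest in layer 7 at ZT6, and at ZT0 the libraries part in layers 7 and 8.

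Straight lines over the layers summarise the gradient. The log2 slope per layer was -0.21 ± 0.01 at ZT12 (n = 3) and -0.29 ± 0.02 at ZT18 (n = 2), against 0.09 ± 0.02 at ZT6 (n = 2) and -0.08 ± 0.18 at ZT0 (n = 3). Position was also read without layers, as the mean rank of Txnip UMIs (0 pericentral, 1 periportal) minus that of all UMIs. The shift was -0.0961, 0.0571 and -0.0498 in ZT0 libraries A, B and C and 0.0428 and 0.0436 at ZT6. It was -0.103, -0.0900 and -0.0981 at ZT12 and -0.136 and -0.138 at ZT18. Each measure puts Txnip periportal of the average UMI at ZT6 and pericentral of it at ZT12 and ZT18.

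The fitted 24-h wave peaked at ZT 11.19 in the pericentral zone, ZT 9.02 in the middle and ZT 6.97 in the periportal zone. Leaving out each library in turn moved these peaks within 10.02 to 12.32, 8.41 to 9.39 and 6.57 to 7.69; since Txnip was chosen on a rhythm that differs between these zones, the order of the peaks is a description. The log2 amplitude was 0.69 (0.58 to 0.79 with a library left out), 0.76 (0.66 to 0.84) and 1.26 (1.10 to 1.46), a peak-to-trough fold of 2.59, 2.86 and 5.75. By layer the peak was at ZT 11.92, 11.84, 9.21 and 9.13 in layers 1 to 4 and at ZT 8.19, 7.20, 7.43 and 6.88 in layers 5 to 8. The amplitude was smallest in layer 3 (0.52) and highest in layers 7 (1.40) and 8 (1.19). With samples 6 h apart, a fitted peak between samples rests on the shape assumed for the wave.

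Cells with a Txnip UMI were next compared with cells without one, a comparison that the choice of the gene did not use. Each positive cell was paired with a negative cell of the same library and layer whose total UMI count was within 10%, which gave 1120 pairs from 1131 positive cells. The sums were compared over the 10 libraries. The genes with the smallest p among those lower included Apoa1 (the main HDL apolipoprotein), Ttr (thyroid hormone and retinol transport), Mup20 and Mup3 (major urinary proteins), Kng1 (kininogen) and Ambp (alpha-1-microglobulin). By size of the change, Hamp2 (-0.46) and Ndufa11 (-0.41) came before them. edgeR called 16 of 8936 genes (0.179%), 15 lower (0.168%) and 1 higher (0.0112%), while 415 had an unadjusted p below the same threshold. DESeq2 called none, with 0.133 as its adjusted p for Apoa1. Among genes of log2 change 0.5 in simulated counts on 8744 genes, the edgeR test recovered 49.25%, and of log2 change 1, 85.07%. The simulation gave all genes 1 common spread between libraries. Called genes such as Mup20 (SD 0.33 in log2) spread more, so these shares may not hold for them.

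Apoa1 was lower in 9 of 10 libraries. Its level was 4902 ± 1950 CPM in positive and 5649 ± 1771 CPM in matched cells, and the difference within libraries was -0.25 ± 0.23 in log2 (SD, n = 10; fitted log2 fold change -0.27 ± 0.04 SE, edgeR adjusted p = 8.74e-09). In ZT6B, for example, positive cells held 5157 and matched cells 7218 CPM, and in ZT6A, the exception, 6391 and 6092 CPM. Mup3 was lower in 10 of 10 libraries, from -0.32 to -0.02, with a fitted change of -0.17 ± 0.04 (SE, edgeR adjusted p = 0.00277). Ttr was lower in 9 of 10 (-0.19 ± 0.04 SE, edgeR adjusted p = 4.98e-04), as were Kng1 (-0.27), Ambp (-0.23), Orm1 (orosomucoid, -0.21) and Acaa2 (a mitochondrial beta-oxidation thiolase, -0.25). Mup20 had a fitted change of -0.25 but its libraries ran from -0.56 to 0.44, and only 7 of 10 were lower. Its SD over libraries was 0.33, beside an edgeR adjusted p of 5.4e-08. For Apoa1, an SE of 0.04 is small for an SD of 0.23 over 10 libraries. The edgeR p-values of this comparison can therefore be smaller than the spread between libraries warrants. The differences of Apoa1, Mup20, Ttr and Mup3 kept their call with each library left out, while the other 12 calls were lost without at least 1 library. Other alternatives removed some of these calls too. Ttr lost its call when cells were matched on depth only, and Mup3 with library size in place of TMM. Both lost it without the 5% of cells with the most UMIs. Neither DESeq2 nor the fit with at least 2 Txnip UMIs called any of these genes.

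Genes beyond the 8 strongest decreases were named after their values were seen. The remaining lower genes were Hamp2 (a hepcidin gene, -0.46, lower in 7 of 10 libraries, -1.58 to 0.85), Ndufa11 (a complex I subunit, -0.41, lower in 10 of 10), mt-Co2 (a cytochrome oxidase subunit, -0.15), Vtn (vitronectin, -0.22), Mug1 (murinoglobulin, -0.21), Gnmt (glycine N-methyltransferase, -0.21) and Apoa2 (-0.15). Saa3, an acute-phase serum amyloid A gene, was the 1 higher call (1.39 ± 0.30 SE, edgeR adjusted p = 0.00557); it lies below the 20 CPM used to name genes and was named after its values were seen. It rested on ZT12B, where 12 positive cells held 48 Saa3 UMIs and 1 of them 21; without ZT12B or without ZT6B the call was lost, with log2 changes between 0.51 and 2.07 over all libraries left out in turn. All values are shares of a fixed total, so where abundant genes take less of a cell, others take more.

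**Figure D4:**
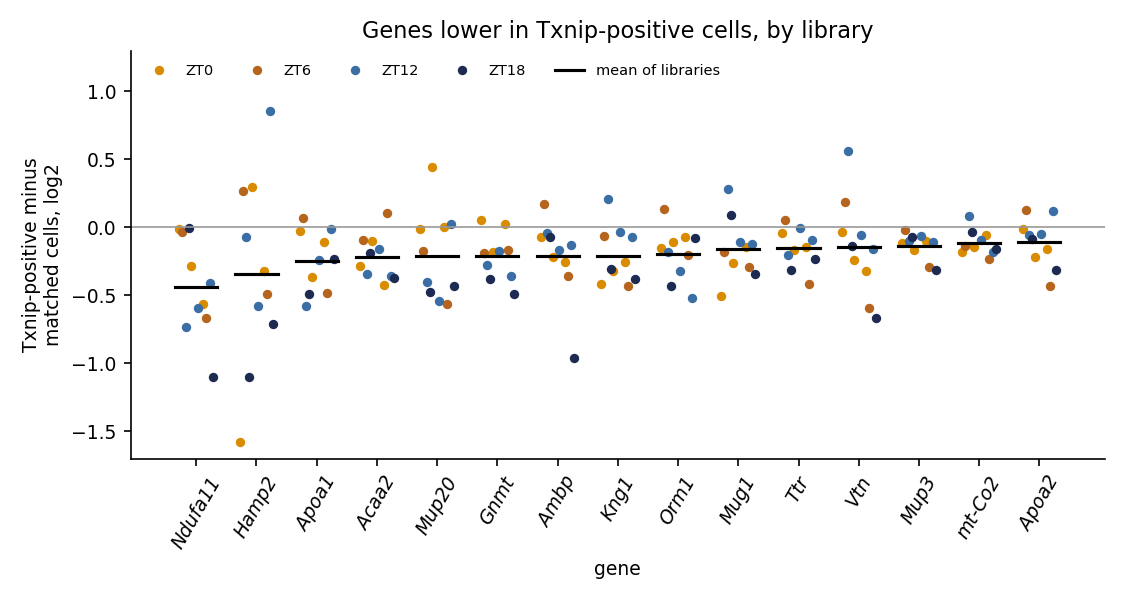
Log2 difference between Txnip-positive and matched cells (y axis) for the 15 genes called lower (x axis); points are the 10 libraries, coloured by time, and bars their mean. Mup3 and Ndufa11 are below 0 in all 10 libraries, whereas Hamp2 spreads from -1.58 to 0.85.

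Positive cells also differed in 2 summed measures. Mitochondrial genes took 16.9% of their UMIs against 17.7% in matched cells, a difference of -0.779 ± 0.817 percentage points that was negative in 9 of 10 libraries and positive in ZT12A (exact two-sided paired permutation test, p = 0.0195, and 0.0195 adjusted over the 2 measures). The matched totals included mitochondrial UMIs. At an equal total, a cell with a lower mitochondrial share has more nuclear UMIs in which Txnip can be found. The matching thus tilts this test towards a negative difference, and the share was not tested with depth matched on nuclear genes. Summed immediate early genes, which answer acute stimuli and tissue handling, were higher by 0.14 ± 0.17 in log2 and in 8 of 10 libraries (exact two-sided paired permutation test, p = 0.0195, adjusted 0.0195). The largest differences were those of ZT0B (822 against 573 CPM) and ZT12C (532 against 428 CPM). ZT12B and ZT18A had lower sums in positive cells. No single immediate early gene of 10 tested was called, beside 0.179% of all genes. Matching depth on nuclear genes alone was an alternative chosen after seeing the data. With it edgeR called 23 of 9237 genes, 3 of them higher. Of the 15 nuclear calls, 11 remained and those of Acaa2, Mug1, Ndufa11 and Saa3 did not. The rest of the 23 were not called in the main fit.

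Of the alpha-arrestins, Arrdc3 and Arrdc4 passed the filter of 3 CPM besides Txnip, Arrdc1 and Arrdc2 lay below it, and Arrdc5 was not used here. The zone contrast, on which all counts of zonation below rest, called 2194 of 8907 genes (24.6%), 1060 higher periportally (11.9%) and 1134 higher pericentrally (12.7%). With library size in place of TMM, 27.8% of its calls were periportal against 48.3%, and the median gene moved by -0.10 in log2. Arrdc4 was periportal (0.61 ± 0.19 SE, edgeR adjusted p = 0.0143, lost without ZT0C), at 7.26 ± 3.14 CPM pericentrally and 10.5 ± 2.35 CPM periportally (n = 10), and higher periportally in 9 of 10 libraries. Arrdc3 was pericentral (-0.53 ± 0.10 SE, edgeR adjusted p = 1.55e-04). Neither was called for rhythm, and neither was called in the zone-dependent rhythm that chose Txnip, where 3 of 8907 genes were (0.0337%). Arrdc4 held 7.06 ± 1.61, 12.8 ± 0.525, 9.60 ± 1.25 and 7.01 ± 1.91 CPM from ZT0 to ZT18, with a fitted peak at ZT 7.36 and an edgeR adjusted p of 0.255.

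In the thioredoxin system, the proteins that TXNIP restrains and their partners, 16 of 16 listed genes were tested, 0 were called for rhythm (5.14% of all genes were) and 7 for zone (24.6% of all genes). Of these, 6 were pericentral: Glrx (glutaredoxin, -0.49), Prdx3 (-0.43), Txnrd1 (thioredoxin reductase, -0.41), Prdx6 (-0.41), Prdx1 (-0.35) and Txnl1 (-0.21, lost in 6 of 10 fits with a library left out). Prdx4, the peroxiredoxin of the endoplasmic reticulum, was periportal (0.63). Txn1, the cytosolic thioredoxin that TXNIP binds, held 274 ± 95.7 CPM pericentrally and 221 ± 74.7 CPM periportally and was not called (-0.20, edgeR adjusted p = 0.0521). It was called pericentral with library size in place of TMM (-0.29, edgeR adjusted p = 0.00134) and in 4 of 10 fits with a library left out. Txn2, its mitochondrial counterpart, was not called either (0.11, edgeR adjusted p = 0.273). The list's median zone effect was -0.18 against -0.01 over all genes.

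For the regulators, Mlxipl and Mlx were tested and neither was called for time or zone. Mlxipl held 110 ± 29.3, 91.5 ± 8.17, 87.2 ± 25.7 and 89.2 ± 10.3 CPM from ZT0 to ZT18. Mlx held 30.0 ± 1.55, 22.7 ± 3.75, 29.1 ± 6.48 and 41.2 ± 3.05 CPM (rhythm, edgeR adjusted p = 0.0531). Mlxip, the paralogue of Mlxipl, lay below the filter, with 68 UMIs in all. The list of TXNIP turnover had 10 tested genes: ubiquitin ligases, AMPK subunits and Ddit4. Of these, 1 was called for rhythm and 3 for zone, beside 5.14% and 24.6% of all genes. The zone count is thus near that of all genes, and 1 gene makes the rhythm count. Nedd4l, a ubiquitin ligase, peaked at ZT 21.06 with an amplitude of 0.66 (edgeR adjusted p = 0.0109): it held 20.2 ± 4.14, 11.1 ± 1.52, 11.8 ± 1.84 and 20.2 ± 3.43 CPM from ZT0 to ZT18, low at the times when Txnip was high. It was also periportal (0.54), as was the AMPK subunit Prkab1 (0.70), while the ligase Wwp1 was pericentral (-0.37). Itch held 38.3 ± 4.27, 40.0 ± 1.99, 69.5 ± 17.5 and 38.3 ± 2.32 CPM and was not called (edgeR adjusted p = 0.200).

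Of 19 other carbohydrate-response targets, 3 were called for rhythm (5.14% of all genes were) and 14 for zone (24.6% of all genes), with 12 of these periportal. Slc2a2, the hepatocyte glucose transporter GLUT2, peaked at ZT 10.68 with an amplitude of 0.68 (edgeR adjusted p = 0.0170, lost without ZT0B) and held 163 ± 25.9, 254 ± 21.2, 443 ± 114 and 175 ± 27.6 CPM from ZT0 to ZT18. Fasn (fatty acid synthase) had a fitted peak at ZT 18.97 and Elovl6 (fatty acid elongase) at ZT 14.95; differences in peak were not tested. The strongest periportal differences were those of Pnpla3 (1.72), Acly (ATP citrate lyase, 1.12), Acaca (acetyl-CoA carboxylase, 0.90) and Tm6sf2 (0.88), and Me1 (malic enzyme, -0.77) and Gpd1 (-0.25) were pericentral. Pklr, the liver pyruvate kinase, was periportal by 0.27 and G6pc, glucose-6-phosphatase, by 0.28; neither was called for rhythm (edgeR adjusted p = 0.175 and 0.767). With library size in place of TMM, Pklr was no longer called for zone (0.17). The list's median zone effect was 0.39 against -0.01 over all genes. None of the 19 was called for a zone-dependent rhythm in edgeR, where 0.0337% of all genes were.

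In the glucose handling list, 5 of 14 tested genes were called for rhythm and 10 for zone, beside 5.14% and 24.6% of all genes. Pfkfb3, which raises glycolysis, peaked at ZT 12.23 (amplitude 1.82) and was pericentral (-0.86). Pck1, the entry enzyme of gluconeogenesis, peaked at ZT 10.22 (0.88) and was periportal (1.05). Gys2 (glycogen synthase) peaked at ZT 13.33, and Slc37a4, the glucose-6-phosphate carrier, at ZT 14.06.

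The counts of the other lists stand beside the same shares of all genes, 5.14% for rhythm and 24.6% for zone. The insulin and FoxO list had 4 of 14 genes called for rhythm and 7 for zone, led in rhythm by Pck1, Ppargc1a (0.69, peak ZT 10.08) and Foxo1 (0.64, peak ZT 11.69). The glucocorticoid list had 6 of 12 called for rhythm and 7 for zone, with Mt1 (amplitude 2.93), Mt2 (2.74) and Per1 (1.42) peaking at ZT 8.21, 8.72 and 10.32 and Cdkn1a (2.03) at ZT 21.35. The unfolded protein list had 5 of 13 called for rhythm and 5 for zone, and its chaperones Hspa5, Sdf2l1, Creld2 and Manf peaked between ZT 19.15 and ZT 21.50. Of 11 immediate early genes, 0 were called for rhythm and 6 for zone. In the comparison of Txnip-positive with matched cells, 16 of 8936 genes were called (0.179%). No gene of the thioredoxin, turnover, ChREBP, glucose, insulin, glucocorticoid, unfolded protein or immediate early lists was among them. At so low a share, lists of this size can hold no call without differing from all genes. For Arrdc4 the change was -0.36 ± 0.45 (SE) and for Txnrd1 0.22 ± 0.12 (SE).

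The genes most like Txnip over the 80 sums of 10 libraries by 8 layers, by Pearson r of log2(CPM + 10) among 4340 genes of at least 20 CPM, were Abcc2 (0.710), Gpcpd1 (0.708), Lpin2 (0.695), Abcg8 (0.694) and Rgs16 (0.687). Next came Serpina6 (0.687), Abcg5 (0.680), Papss2 (0.652), Ppm1a (0.643) and Smim19 (0.633). The median gene had r = 0.0911 and the top 5% began at 0.459. Sums of a library share its depth and batch, so these values describe these libraries. Abcg5 and Abcg8, the paired half-transporters of sterol export into bile, held 11.5 and 23.2 CPM at ZT0, 39.2 and 61.1 at ZT6, 40.6 and 67.3 at ZT12, and 13.1 and 12.9 at ZT18. The least like genes were Sdf2l1 (-0.659), Sdr9c7 (-0.651), Ppa1 (-0.632), AI182371 (-0.625) and Creld2 (-0.620), of which Sdf2l1 and Creld2 act in protein folding in the endoplasmic reticulum.

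By the periportal minus pericentral difference over the 10 libraries, the nearest genes were Cyp2c50 (r = 0.889), Coq10b (0.856), Samd8 (0.842), Rgn (0.811, a landmark of the score) and Tmed3 (0.807). Over the 4340 genes this r had a median of -0.0711, and the top 5% began at 0.479. Cyp2c50, a pericentral cytochrome P450, stayed pericentral at all times, with differences of -3.48, -3.17, -4.20 and -4.23 from ZT0 to ZT18. Coq10b, a coenzyme Q binding protein, had -0.01, 0.21, -0.27 and -0.29, which changes sign as Txnip does but over a smaller range. Rgs16, a regulator of G-protein signalling, had 0.08, 0.75, -0.49 and 0.17. Listed genes were less alike over the 80 sums: r was 0.501 for Slc2a2, 0.321 for Itch, 0.212 for Txnrd1, 0.139 for Mlxipl, 0.114 for Txn2, 0.0406 for Pklr, -0.00726 for Txn1, -0.0433 for G6pc and -0.390 for Mlx.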

How the data were processed

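Single hepatocytes were profiled with the 10x Chromium 3' version 2 kit, per the labels' protocols. The authors deposited UMI counts per gene and cell for 10 libraries. The submitters' processing notes name Cell Ranger, mm10 and hg19; cell and doublet filters are not given in the sources used here. Column names number the cells and carry no barcodes, so barcodes shared by libraries were not counted. No cell was left out (1048 to 10001 UMIs per cell) and no doublet caller was run; dropping the deepest 5% of each library's cells was an alternative.

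Cells were ordered within a library by a score: 8 pericentral landmarks (Rgn, Cyp1a2, Lect2, Aldh1a1, Mgst1, Gulo, Oat and Cyp2e1) were subtracted, as a mean z-score, from 8 periportal ones (Ftcd, Pigr, Hsd17b13, Ctsc, Hal, Asl, Ass1 and Cyp2f2). The order was cut into 3 zones or 8 layers. UMIs were summed per library and tested with edgeR 4.0.16 (quasi-likelihood F-test, TMM, mean of at least 3 CPM, Benjamini-Hochberg, threshold 0.05; R 4.3.3), with a 24-h cosine and sine for rhythm and the library as a block between zones and between matched cells. DESeq2 1.42.0, other filters, scalings, cell orders and single libraries left out were alternatives. Each test was checked on simulated counts, drawn with 1 spread common to all genes. Intervals cover counting error only. Named genes were Txnip, fixed genes of its pathway, up to 4 called members of a list with the largest effect, the genes most like Txnip, and the highest and lowest called genes of at least 20 CPM in the matched comparison. The gene, its lists and the tests were chosen with earlier results of these data known.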

Additional observations from a re-analysis of the deposited data

Results flagged for a closer look

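The periportal minus pericentral difference of Txnip had opposite signs at different times. It was lower at ZT12 than at ZT6 by -1.516 in log2 and at ZT18 than at ZT6 by -2.154, with both ZT6 libraries above 0 and all 5 libraries of ZT12 and ZT18 below it. The gene was chosen for this change, so the difference between times was not tested again here. ZT6 rests on 2 libraries with 295 Txnip UMIs and ZT18 on 2 with 124. Both ZT6 libraries share an index number that ZT18 lacks, and the part of the index in the difference was not tested.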

How the results depend on the processing

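Txnip's zone difference kept its sign at ZT6, ZT12 and ZT18 under every alternative run, as the mean over libraries; its size moved, and the cause was not tested. At ZT6 (0.45) it was 0.32 with even landmarks only, 0.74 between the outermost of 5 equal parts, 0.53 between those of 8 parts, 0.37 with a pseudocount of 10 and 0.71 with 1 order of cells over all libraries. At ZT12 (-1.07) it was -1.33 with 5 parts, -1.48 with 8, -0.87 with a pseudocount of 10 and -1.14 in cells of at least 3000 UMIs. At ZT18 (-1.71) it was -1.24 with odd landmarks only, -1.93 with 5 parts, -1.10 with a pseudocount of 10, -2.60 in cells of at least 3000 UMIs, -1.30 without the 5% of cells with the most UMIs and -1.52 with 1 order of cells over all libraries. At ZT0 (-0.36) leaving out single libraries gave -0.88 (without ZT0B) to 0.0106 (without ZT0A), a change of sign. In cells of at least 3000 UMIs ZT6A alone had -0.07.

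The log2 amplitude of Txnip over all cells (0.72) was 0.79 with library size in place of TMM and 0.72 with DESeq2 (0.7194), both past the threshold, and 0.59 to 0.88 with a library left out.

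Genes called for rhythm over all cells (458) numbered 792 with DESeq2, 231 without both ZT18 libraries (an alternative chosen after seeing the data) and 228 to 465 with a library left out. In the middle zone (293) they numbered 167 to 328 with a library left out. The labels do not say that a letter pairs samples. The correlation of same-letter deviations ran from -0.04 to 0.47 over all times and was not above 0.1 in every pair. Between ZT0 and ZT12 it was 0.239 (A), 0.420 (B) and 0.473 (C). Those pairs share index numbers, that of A only if its differently written labels are read alike. ZT6B shares its index number with ZT0B and ZT12B too, where the correlation was -0.014 and 0.036. A replicate block by letter gave 749 genes over all cells and 461 in the middle zone, and left Txnip uncalled (adjusted p = 0.0643 and 0.0813). Between zones, 1211 genes were called in cells of at least 3000 UMIs, against 2194. Zone-dependent rhythm (3 genes, 546 at an unadjusted p below the threshold) was called for 5 with library size, 0 with DESeq2, 42 with no filter, 1 with odd landmarks, 32 in cells of at least 3000 UMIs and 0 to 36 with a library left out.

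Txnip-positive against matched cells (16 genes) gave 4 with library size, 0 with DESeq2, 7 matched on depth only, 0 with at least 2 Txnip UMIs, 3 without the 5% of cells with the most UMIs and 5 to 22 with a library left out. Matched on UMIs of nuclear genes, an alternative chosen after seeing the data, the comparison gave 23, of which 11 were among the 16. With at least 2 Txnip UMIs, where 78 cells were positive, Mup20 turned to 0.44 and Saa3 to -0.89. Of 2580 values of 162 called single-gene results under the alternatives, 2260 kept direction and call, 318 kept direction and lost the call, and 2 turned. About 1 UMI per positive cell limits what the layers and matched cells can show.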
